A study of Mus musculus with 18 samples.

Results

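The antiviral effector and antigen presentation genes of the mouse heart were taken as every array probe whose gene symbol, in the authors' gene list for postnatal day 8 (P8) or day 30 (P30), matched a fixed pattern of names. The pattern covers antiviral sensors and interferon regulatory factors, interferon-stimulated effectors, chemokines, the MHC and its peptide-loading machinery, and Ly6 surface proteins. It found 91 probes with 89 different first symbols, of 5499 probes in the 2 lists. Of these, 45 probes had values per sample, of 4704 probes in the value table, and 46 had group averages only. The P8 list named 87 of the 91 and the P30 list 6, with 2 in both.

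Hearts were compared on Clariom S arrays, on which a probe stands for 1 transcript cluster. The groups were 5 samples at P30 under hypoxia at 11% oxygen (numbers 1 to 5), 4 at P30 in normoxia (2 to 5), 5 at P8 under hypoxia (4 to 8) and 4 at P8 in normoxia (13, 22, 23 and 24). The series title names a model of cyanotic congenital heart disease and the pace of cardiac maturation. The labels give no strain or genotype, do not say that each sample is 1 animal, and do not say whether the P30 mice remained in hypoxia throughout, so a p-value here speaks only of the variation among the arrays, part of which may be technical. Arrays were run only on RNA with an integrity number above 6. All values are log2 signals as deposited. A difference of 1 is a doubling of signal, and the level of 1 probe cannot be set against that of another.

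The authors' lists hold only probes with an unadjusted p of at most 0.05 for hypoxia against normoxia at that age. Belonging to the P8 list therefore already used the P8 comparison, and the P8 values below describe the genes without being a separate test of them. The 40 probes with values that only the P8 list named are absent from the P30 list. Leaving out probes with a low P30 p favours small P30 differences, so their P30 values are not free of choice either.

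Cells that sense viral nucleic acid secrete interferons. Interferons act through JAK kinases and transcription factors that switch on genes that carry the interferon-stimulated response element in their promoters. The products block viral replication, attract leukocytes and raise the display of peptides on MHC class I. In heart muscle these genes are known from viral myocarditis and from the sensing of nucleic acid released by dying cells.

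The promoter element was looked up in RefSeq windows of assembly GRCm38.p6, from 250 bases before to 50 bases after a gene's start. Of the 89 symbols, 66 matched a window. The interferon-stimulated response element was searched as GAAANNGAAA on both strands, overlapping matches included, and was found in 21 of the 66 genes (31.8%), against 3.99% of 27025 genes with a window. It was held by 6 of 12 sensors and regulators and 12 of 22 antiviral effectors, but by 2 of 10 chemokines and by 1 of 17 antigen presentation genes, B2m. A stricter form, with T fixed as the sixth base, was found in 12 of 66 (18.2%), against 0.932% of all genes. The gamma-activated site, TTCNNNGAA of the response to interferon gamma, was found in 13 of 66 (19.7%), against 9.55%. A match is a description of the letters and not a measured binding site. The following stretches, each with 20 bases on both sides, show the element in a regulator, several effectors, a chemokine gene and B2m, 5′ to 3′ on the gene's own strand and with the matching bases in capitals.
Isg15, chr4:156200855-156200916, minus strand, 3 overlapping matches: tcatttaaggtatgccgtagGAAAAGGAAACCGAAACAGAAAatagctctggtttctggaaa
Bst2, chr8:71537567-71537622, minus strand, 2 overlapping matches: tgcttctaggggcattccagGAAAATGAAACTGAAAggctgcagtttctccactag
Ifit3, chr19:34583353-34583436, plus strand, 2 matches: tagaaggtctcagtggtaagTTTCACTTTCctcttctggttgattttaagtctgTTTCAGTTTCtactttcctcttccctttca
Rsad2, chr12:26456543-26456592, minus strand, 1 match: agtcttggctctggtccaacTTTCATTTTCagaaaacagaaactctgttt
Stat2, chr10:128270256-128270305, plus strand, 1 match: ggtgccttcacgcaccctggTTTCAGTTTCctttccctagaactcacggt
Cxcl10, chr5:92349073-92349122, minus strand, 1 match: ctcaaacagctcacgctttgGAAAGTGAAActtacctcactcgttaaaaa
B2m, chr2:122147528-122147577, plus strand, 1 match: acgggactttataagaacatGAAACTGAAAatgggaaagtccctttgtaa
Capitals beginning with TTTC are the element read on the opposite strand. All of these stretches lie before the start of their gene, in the promoter. In Isg15 and Bst2 the repeats follow each other so that neighbouring matches share bases. Tap1 and Psmb9 on chromosome 17 start 226 bases apart on opposite strands, share 275 bases of their windows, and hold neither form of the element there.

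**Figure D1:**
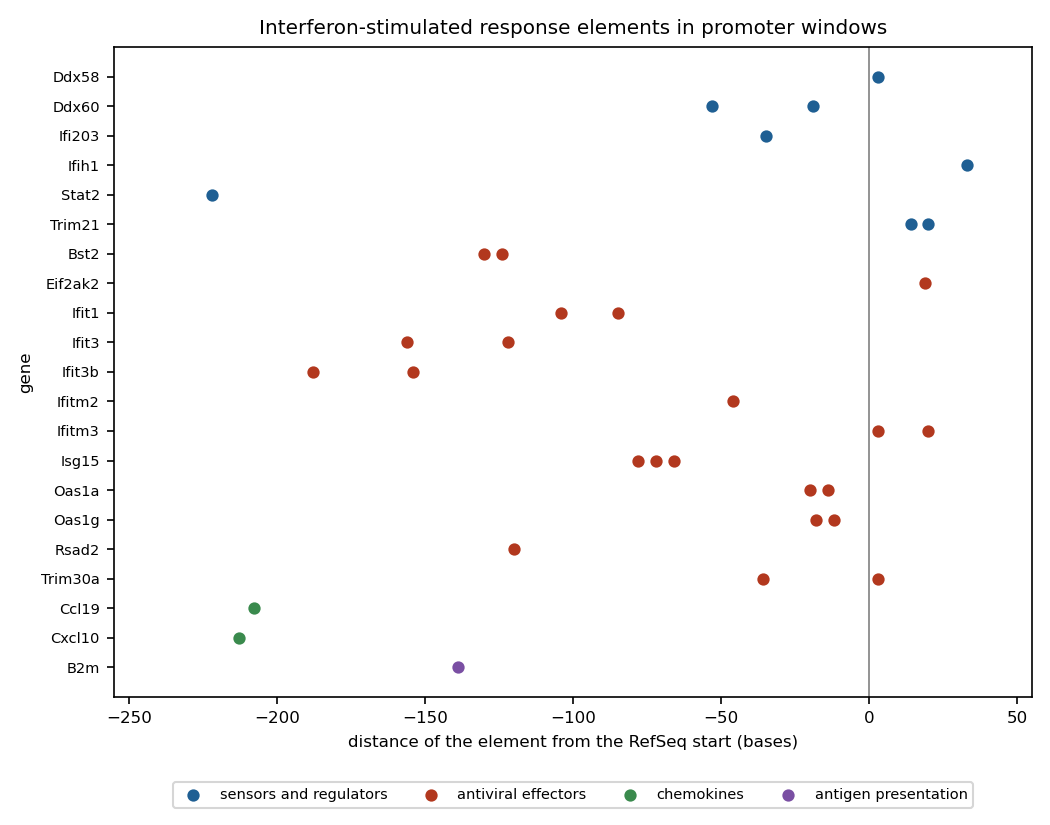
Position of each interferon-stimulated response element (x axis, bases from the RefSeq start, negative before it) in the 21 genes that hold 1 or more (y axis), coloured by role. The antiviral effectors hold 12 of the 21 rows and B2m is the one antigen presentation gene.

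Under hypoxia at P8 most of these genes stood higher than in normoxia. Of the 45 probes with values, 36 passed an adjusted p of 0.05 upwards and 0 downwards (limma with Benjamini-Hochberg adjustment over 22201 tests). Of all 4704 probes, 15.2% passed upwards and 5.57% downwards, and of the probes with values in the P8 list 30.9% passed upwards. The calls took in 7 of 9 sensors and regulators, 14 of 14 antiviral effectors, 12 of 12 antigen presentation probes and 3 of 3 Ly6 and secreted proteins, and 0 of 6 chemokine probes (3 of these 6 had an unadjusted p under 0.05 upwards and 1 downwards). The median difference over the 45 probes was 2.96, against 0.18 over all probes, and 30 of the 45 had every hypoxic sample above every normoxic one, as did 16.4% of all probes. With only the 2 P8 groups in the fit, 9 probes passed, and without hypoxic samples 4 and 5, 18 passed. Without normoxic sample 22, 23 passed.

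The hypoxic P8 samples did not share the rise equally. The median signal over the 45 probes was 10.16 in hypoxic sample 4, 11.35 in sample 5, 6.73 in sample 6, 6.53 in sample 7 and 8.58 in sample 8, against 5.05 to 5.55 in the 4 normoxic samples. Samples 4 and 5 stood far above the rest, sample 8 lay between, and samples 6 and 7 lay closer to normoxia but still above it. Samples 4 and 5 were the highest hypoxic samples in 33 of 45 probes (73.3%), against 14.8% of all probes and 18.4% of the other probes called higher at P8. This pair was chosen after the values of the same 45 probes were seen, so the shares describe them and are no test. The SD among hypoxic P8 samples had a median of 1.71 over the 45 probes and 0.38 over all probes, whereas among normoxic P8 samples it was 0.61 and 0.41. The medians of all probes on these arrays were 7.87 to 8.07 under hypoxia and 7.49 to 7.69 in normoxia, so samples 4 and 5 did not stand apart in overall signal.

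**Figure D2:**
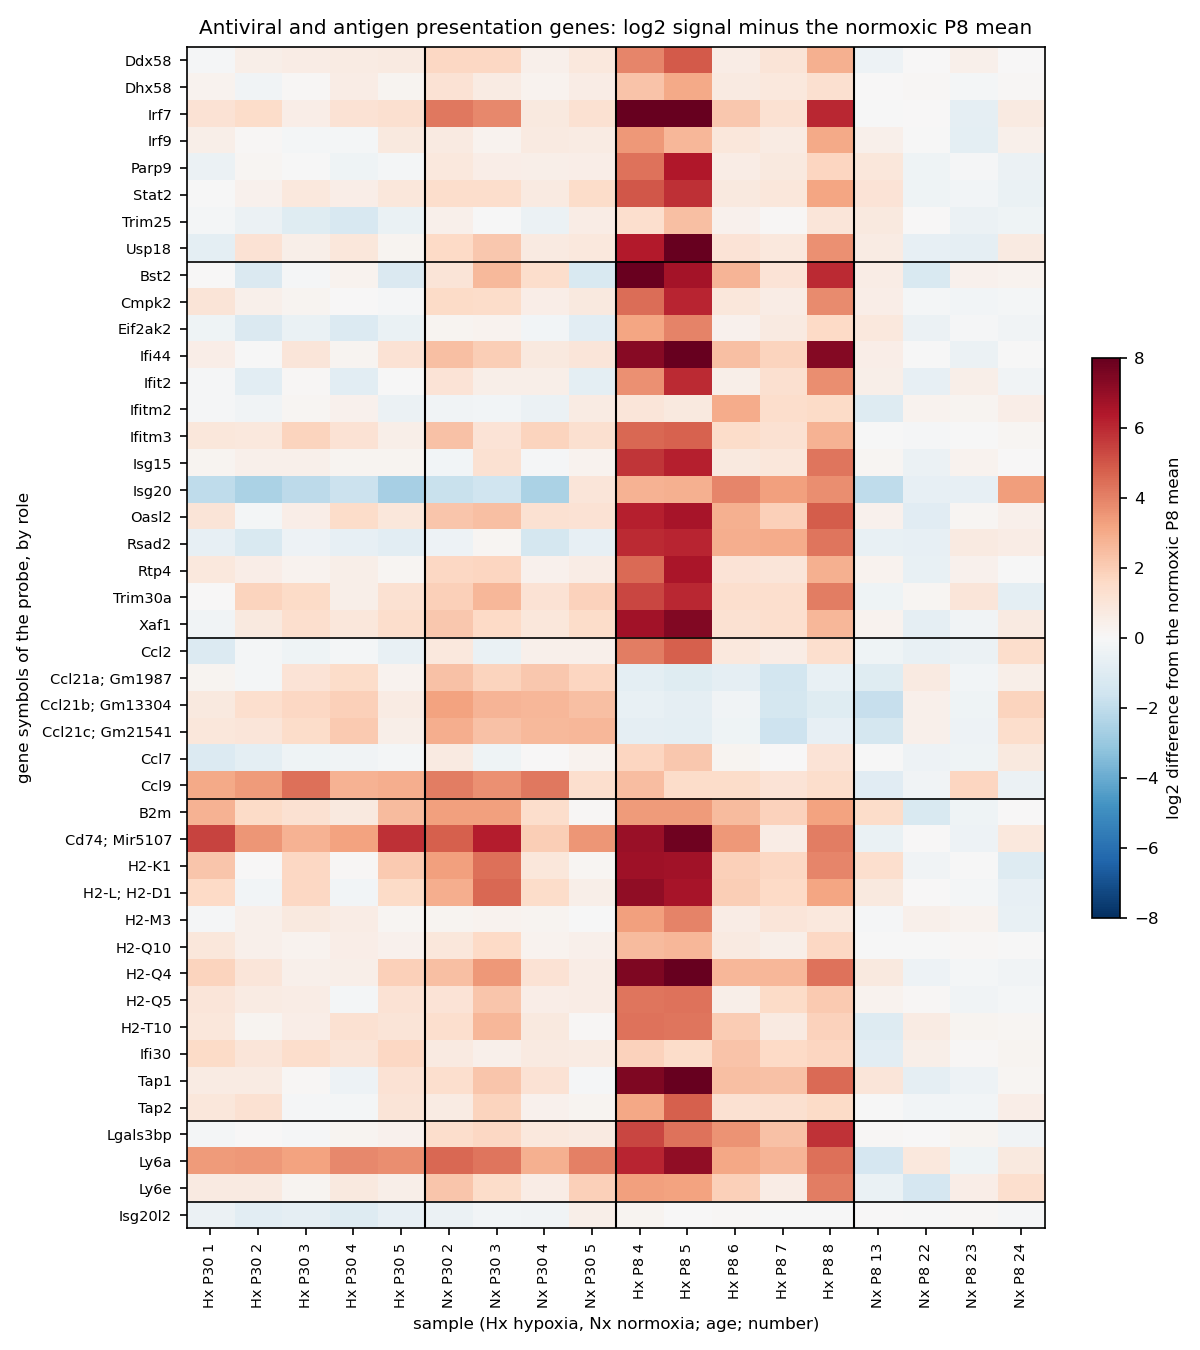
Log2 signal of 44 of the 45 probes (rows, grouped by role with horizontal lines) in the 18 samples (columns), as the difference from the normoxic P8 mean of the same probe. Hypoxic P8 samples 4 and 5 are the darkest red columns, sample 8 is intermediate, and normoxic P30 samples 2 and 3 are redder than 4 and 5.

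Among the sensors and regulators, Irf7, which amplifies interferon production, had 13.10, 12.56, 5.18, 4.21 and 9.03 in hypoxic P8 samples 4 to 8, against 2.98, 3.05, 2.27 and 3.71 in normoxic samples. Its hypoxic SD of 4.09 was the widest of the 45 probes, and the groups did not overlap. The difference was 5.81 ± 1.33 (SE, limma adjusted p = 0.0151), and 3.14 without samples 4 and 5 (adjusted p = 0.0510).
Irf9, a DNA-binding subunit of the factor that acts on the element, had 8.31, 7.48, 5.75, 5.52 and 7.89 under hypoxia at P8, against 5.27, 4.81, 4.07 and 5.26 in normoxia. Here sample 8 was the second highest. The difference was 2.14 ± 0.46 (SE, limma adjusted p = 0.00973), and 1.53 without samples 4 and 5 (adjusted p = 0.0597).

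The RNA sensors moved likewise. Ddx58, which encodes the RIG-I helicase, had 9.87, 10.82, 6.53, 6.98 and 8.80 in hypoxic P8 samples, against 5.52, 5.99, 6.32 and 5.95 in normoxic ones. Dhx58, which encodes the related helicase LGP2, had 5.28, 6.04, 3.70, 3.87 and 4.27 under hypoxia, against 3.02, 3.11, 2.84 and 3.08 in normoxia. In both genes all hypoxic samples exceeded all normoxic ones. The differences were 2.66 ± 0.61 for Ddx58 (SE, limma adjusted p = 0.0151) and 1.62 ± 0.36 for Dhx58 (SE, adjusted p = 0.0132). The Ddx58 call was lost without samples 4 and 5 (1.49, adjusted p = 0.0574), and that of Dhx58 with arrays centred on their medians. The 2 probes of this role that missed the threshold were Parp9 (2.77, adjusted p = 0.0533) and the ubiquitin ligase Trim25 (1.02, adjusted p = 0.210).

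Of the antiviral effectors, Rsad2, which encodes viperin, an enzyme that makes a chain-terminating nucleotide, had 12.88, 13.06, 9.82, 9.90 and 11.25 in hypoxic P8 samples 4 to 8, against 6.32, 6.26, 7.63 and 7.56 in normoxic samples. Even the lowest hypoxic sample lay over 2 above the highest normoxic one. The difference of 4.44 ± 0.56 (SE, limma adjusted p = 0.000128) was 3.38 without samples 4 and 5 (adjusted p = 0.000130).

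Oasl2, of the oligoadenylate synthetase-like family, had 10.96, 11.35, 7.57, 6.63 and 9.56 under hypoxia at P8, against 5.07, 3.84, 4.93 and 5.14 in normoxia. Ifi44 had 11.63, 13.45, 6.73, 6.11 and 11.69, against 4.84, 4.28, 3.86 and 4.30. Both were raised in all 5 hypoxic samples, and in Ifi44 sample 8 stood level with sample 4. The differences were 4.47 ± 0.70 for Oasl2 (SE, limma adjusted p = 0.000834) and 5.60 ± 1.03 for Ifi44 (SE, adjusted p = 0.00315).

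Ifitm3, a membrane protein that blocks virus entry, had 14.04, 14.21, 10.96, 10.71 and 12.27 in hypoxic P8 samples, against 9.45, 9.37, 9.46 and 9.62 in normoxic ones. Isg15, a ubiquitin-like modifier, had 8.49, 8.96, 3.56, 3.70 and 7.07, against 2.91, 2.30, 3.05 and 2.83. For Isg15 the groups again did not overlap, but samples 6 and 7 lay within 1 of the normoxic mean of 2.77. The difference was 2.96 ± 0.56 for Ifitm3 (SE, limma adjusted p = 0.00371) and 3.58 ± 0.81 for Isg15 (SE, adjusted p = 0.0143), and without samples 4 and 5 the Isg15 difference was 2.00 (adjusted p = 0.0569).

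In 4 of the 14 effectors samples 4 and 5 were not the highest pair. In Ifi44 and Ifit2 sample 8 lay just above sample 4, while Isg20 and Ifitm2 were highest in sample 6. Isg20, an interferon-induced exonuclease, had 10.71, 10.76, 11.83, 11.22 and 11.62 in hypoxic P8 samples 4 to 8, against 5.90, 7.30, 7.25 and 11.28 in normoxic samples 13, 22, 23 and 24. Its hypoxic samples were uniform (SD 0.50), and normoxic sample 24 lay among them. The call of Isg20 (3.30, limma adjusted p = 0.0156) was lost without normoxic sample 13, 22 or 23. Ifitm2 had 13.96, 13.75, 15.96, 14.37 and 14.51 under hypoxia, against 11.97, 13.27, 13.23 and 13.50 in normoxia, and was highest in sample 6. Its difference was 1.52 ± 0.39 (SE, limma adjusted p = 0.0276), and the call was lost without normoxic sample 13 or 23 or hypoxic sample 6 or 8.

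Other effectors that still passed without hypoxic samples 4 and 5 were Bst2, or tetherin, which holds budding virions at the cell surface (3.27 without them, limma adjusted p = 0.0388), Trim30a (2.26, adjusted p = 0.0342), Rtp4 (1.64, adjusted p = 0.0307) and the apoptosis-linked Xaf1 (1.75, adjusted p = 0.0271). With all samples their differences were 4.88 for Bst2, 3.64 for Trim30a, 3.19 for Rtp4 and 3.87 for Xaf1. The calls of Rtp4 and Xaf1 were lost without normoxic sample 22. That of Rtp4 was also lost without normoxic sample 24, and that of Xaf1 without normoxic sample 23 or hypoxic sample 4. Eif2ak2, the kinase PKR that halts translation on double-stranded RNA, had the weakest call (1.97 ± 0.55, SE, adjusted p = 0.0439), which was lost without samples 4 and 5 (0.89, adjusted p = 0.287).

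**Figure D3:**
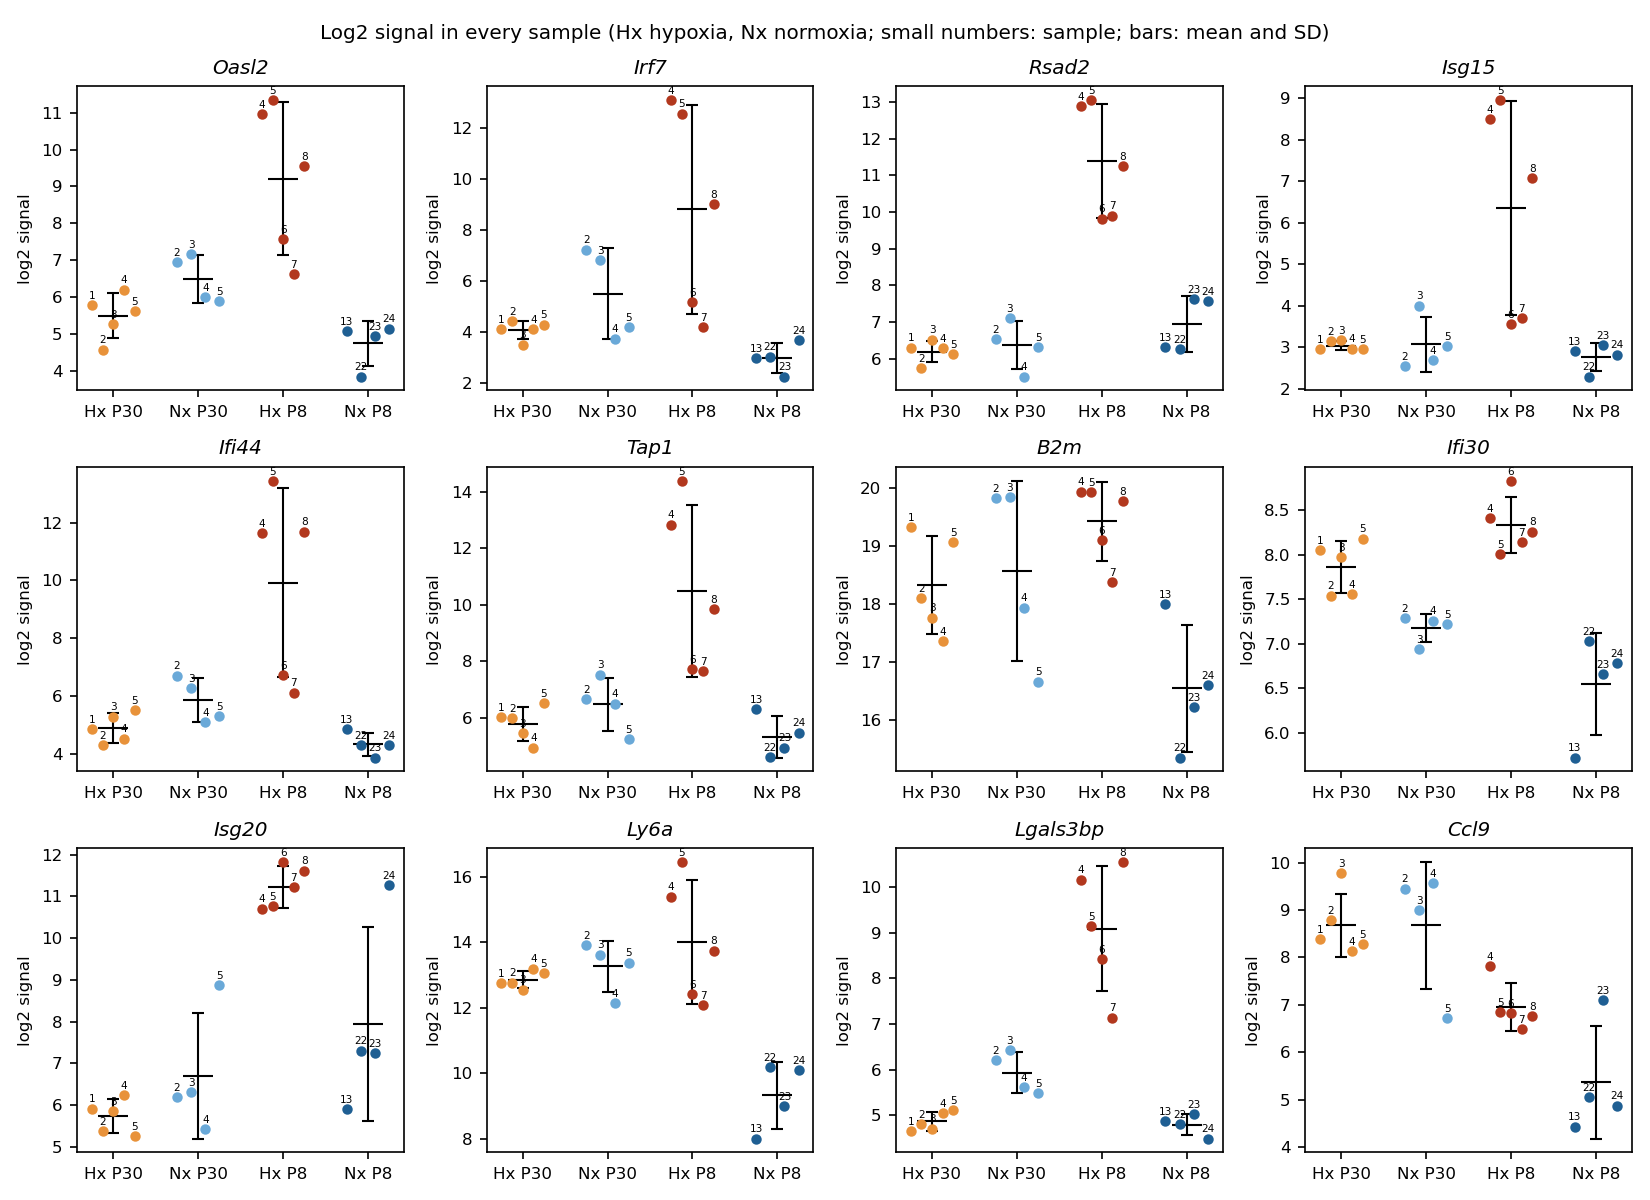
Log2 signal of 12 named genes in every sample (points, numbered by sample) of the 4 groups (x axis), with the mean and SD of each group. In Oasl2, Irf7, Isg15 and Tap1 hypoxic P8 samples 4 and 5 stand highest and sample 8 next, whereas in Ifi30 and Isg20 the 5 hypoxic P8 samples lie close together.

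In antigen presentation the rise covered class I heavy chains, their light chain and the peptide transporter. B2m, the light chain of MHC class I, had 19.93, 19.92, 19.10, 18.37 and 19.77 in hypoxic P8 samples, against 17.99, 15.35, 16.22 and 16.60 in normoxic ones. Hypoxic P8 samples 4, 5 and 8 and normoxic P30 samples 2 and 3 all lay between 19.77 and 19.93, and whether the probe was saturated there was not tested. The difference was 2.88 ± 0.61 (SE, limma adjusted p = 0.00905).

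Tap1, which pumps peptides into the endoplasmic reticulum, had 12.83, 14.38, 7.73, 7.66 and 9.84 under hypoxia at P8, against 6.31, 4.61, 4.95 and 5.48 in normoxia. H2-Q4, a non-classical class I heavy chain, had 12.17, 12.76, 7.36, 7.36 and 9.04, against 5.52, 4.34, 4.60 and 4.45. The groups did not overlap for either gene. The differences were 5.15 ± 0.99 for Tap1 (SE, limma adjusted p = 0.00414) and 5.01 ± 0.90 for H2-Q4 (SE, adjusted p = 0.00261).

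Ifi30 encodes the lysosomal thiol reductase GILT, which prepares antigens for class II. It had 8.41, 8.01, 8.83, 8.14 and 8.26 in hypoxic P8 samples, against 5.72, 7.03, 6.66 and 6.78 in normoxic samples. Unlike most of these genes it was about as high in samples 6 and 7 as in 4 and 5, with a hypoxic SD of 0.32. Its difference was 1.78 ± 0.25 (SE, limma adjusted p = 0.000346), and 1.86 without samples 4 and 5. The probe shared by Cd74, the class II invariant chain, and Mir5107 had 11.38, 12.24, 7.93, 5.05 and 8.58 under hypoxia, against 3.96, 4.48, 4.08 and 5.33 in normoxia. Hypoxic sample 7 lay inside the normoxic range there. The difference of 4.57 ± 1.09 (SE, limma adjusted p = 0.0188) was 2.72 without samples 4 and 5 (adjusted p = 0.120), and the call was also lost without normoxic sample 23. The other class I heavy chain probes and Tap2 had differences of 1.61 to 4.18. All of these lost their calls without samples 4 and 5, with limma adjusted p from 0.05805 (Tap2) to 0.1335 (H2-K1). That of H2-M3 was lost in 10 of 16 alternatives. MHC heavy chains, like the Ifit, Oas1, Ly6 and Ccl21 families, have near-identical copies, so a probe's signal may come from more than the gene it is named for.

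Lgals3bp, a secreted galectin-binding glycoprotein, had 10.16, 9.15, 8.42, 7.14 and 10.55 in hypoxic P8 samples 4 to 8, against 4.88, 4.80, 5.02 and 4.49 in normoxic ones. It had the lowest adjusted p of the 45 probes (4.29 ± 0.46, SE, limma adjusted p = 3.65e-05). Ly6a, the Sca-1 antigen of endothelial and progenitor cells, had 15.39, 16.45, 12.41, 12.07 and 13.74, against 8.01, 10.19, 9.01 and 10.10, a difference of 4.68 ± 0.68 (SE, adjusted p = 0.000448). Ly6e had 16.80, 16.77, 15.43, 14.12 and 17.63, against 13.01, 12.17, 14.06 and 14.91. Its groups overlapped at sample 7, and its call (2.61 ± 0.58, SE, adjusted p = 0.0114) was lost without normoxic sample 22 and without hypoxic samples 4 and 5 together. The 9 probes called under all 17 alternatives tried at P8 were B2m, Ifi44, Oasl2, Ifitm3, Ifi30, Lgals3bp, Rsad2, Ly6a and H2-Q4.

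The chemokines with values did not pass the threshold in either direction. Ccl2, which draws monocytes, had 8.79, 9.50, 5.58, 5.31 and 6.08 in hypoxic P8 samples, against 4.36, 4.13, 4.26 and 6.11 in normoxic ones, with normoxic sample 24 above 3 of the hypoxic samples. The difference was 2.34 ± 0.68 (SE, limma adjusted p = 0.0555). Ccl7, a related monocyte chemokine, had 6.09, 6.55, 4.58, 4.40 and 5.47 against 4.34, 3.96, 4.05 and 5.14 (1.05 ± 0.39, SE, adjusted p = 0.172).
Ccl9 had 7.82, 6.85, 6.83, 6.48 and 6.76 against 4.43, 5.05, 7.10 and 4.87 (1.59 ± 0.55, SE, limma adjusted p = 0.131). Normoxic sample 23 exceeded 4 of the 5 hypoxic ones. The 3 probes of the set for Ccl21 copies, ligands of the homing receptor CCR7 made by lymphatic endothelium, were its only ones below 0 at P8. The probe of Ccl21a and Gm1987 had 6.50, 6.28, 6.54, 5.79 and 6.64 under hypoxia, against 6.31, 7.99, 7.05 and 7.70 in normoxia (-0.91 ± 0.34, SE, limma adjusted p = 0.190). That of Ccl21b and Gm13304 differed by -0.80 (adjusted p = 0.886) and that of Ccl21c and Gm21541 by -0.84 (adjusted p = 0.554). Further probes that name Ccl21b or Ccl21a after a Gm symbol fall outside the pattern. They differed at P8 by -1.27 (Ccl21b, limma adjusted p = 0.105) and -1.19 (Ccl21a, adjusted p = 0.0742), and at P30 by -1.64 and -1.14.

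The members with group averages only were described from the authors' deposited P8 list, whose averages follow a Tukey biweight that down-weights outlying samples. Of the 45 such probes, 39 were higher under hypoxia in the authors' deposited table, and 0 had a q-value of at most 0.05, against 17.5% of all 4351 listed probes and 16 of all 87 members (18.4%). For the whole set of 87 in the authors' deposited P8 table, 80 were higher (92.0%), against 51.5% of all 4351 listed probes, and the hypoxic SD exceeded the normoxic one in 78 (89.7%), against 42.8%.
In the authors' deposited table the tetratricopeptide effectors Ifit3 (10.66 ± 4.43 under hypoxia against 5.24 ± 0.24 in normoxia, fold 42.94) and Ifit1 (7.55 ± 4.04 against 2.91 ± 0.16, fold 24.86) had some of the widest hypoxic spreads. Cxcl9 and Cxcl10, which draw activated T cells through CXCR3, stood at 8.78 ± 5.75 against 3.45 ± 0.64 (fold 40.34) and at 6.11 ± 3.76 against 3.55 ± 0.33 (fold 5.89) in the authors' deposited table. These hypoxic SDs span many doublings, so single samples stood far apart there too. The immunoproteasome subunits, which reshape the peptides cut for class I, were Psmb8 with 8.51 ± 3.65 against 4.84 ± 0.34 (fold 12.76), Psmb9 with fold 8.67 and Psmb10 with fold 6.44 in the authors' deposited table.

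The dsRNA sensor Ifih1, or MDA5, had 8.50 ± 2.49 under hypoxia against 5.41 ± 0.60 in normoxia (fold 8.51) in the authors' deposited table. The regulator Irf1 had 6.85 ± 3.26 against 5.11 ± 0.60 (fold 3.34) there. All 9 sensors and all 11 effectors of this kind were higher, but only 6 of 10 chemokine probes. The 6 lower ones in the authors' deposited table were Ccl1, 1 of the Ccl19 probes, both Ccl27b probes (fold -2.08, with identical values), H2-M10.5 and Irf2bp2. Irf2bp1, Irf2bp2 and Isg20l2 match the name pattern but are not known as interferon-stimulated genes.

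**Figure D4:**
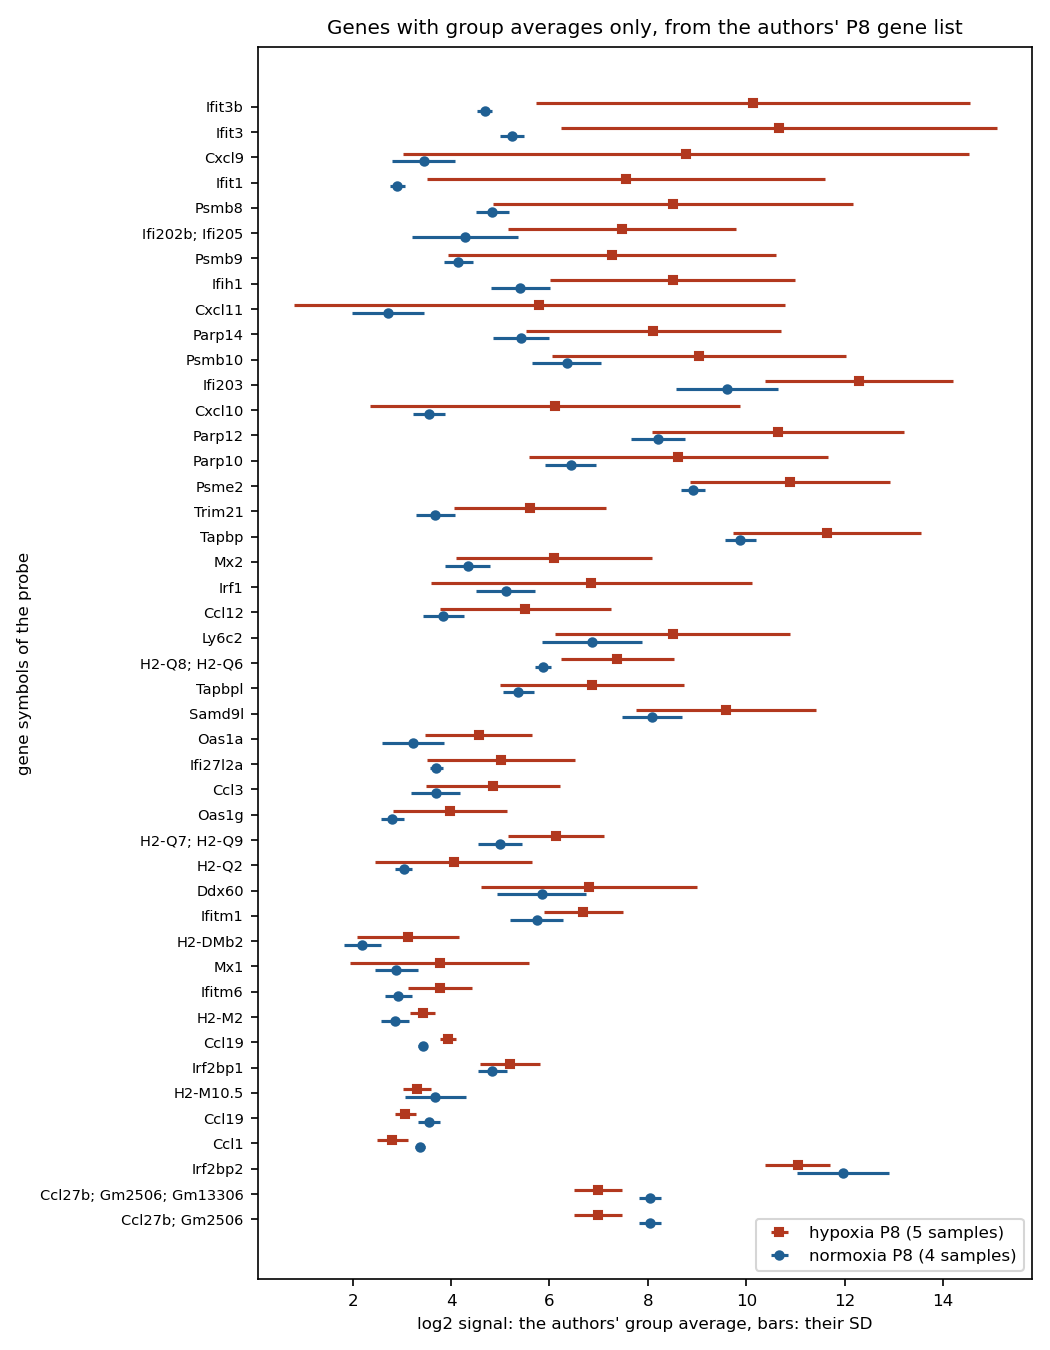
The authors' deposited group averages at P8 (x axis, log2 signal, squares for hypoxia and circles for normoxia, bars their SD) of the 45 probes without values per sample. The hypoxic average lies to the right for 39 probes and its bars are the longer ones for most.

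At P30 the elevation was not seen. None of the 45 probes passed in either direction (0 of 45), and none of the 4704 did (0% in each direction). The unadjusted limma p was under 0.05 in 6 of the 45, of which 1 was higher, and in 13.9% of all probes. That count does not set the 45 apart. The P30 median of the 45 probes was -0.70, against -0.10 for all probes, and 41 of them were below 0. Of the 40 probes that only the P8 list named, 37 (92.5%) were below 0 at P30, against 59.7% of all probes. In 1 the unadjusted limma p was under 0.05, a count kept low because probes of the P30 list are not among these 40.

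The normoxic P30 samples were the less even ones. The median signal over the 45 probes was 6.02, 5.82, 6.06, 6.10 and 6.12 in hypoxic P30 samples 1 to 5, against 7.13, 7.08, 6.33 and 6.12 in normoxic samples 2 to 5. Normoxic samples 2 and 3 lay above 4 and 5 in 27 of 45 probes, against 14.8% of all probes, a split chosen after the values were seen. Irf7 had 4.13, 4.44, 3.52, 4.13 and 4.30 against 7.24, 6.84, 3.76 and 4.22 (-1.41, interval -4.19 to 1.37). The groups overlapped, and the interval reaches from well below 0 to well above it.

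Rsad2 had 6.30, 5.74, 6.52, 6.29 and 6.12 in hypoxic P30 samples, against 6.54, 7.10, 5.51 and 6.31 in normoxic ones, a difference of -0.17 (95% interval -1.35 to 1.01). Isg15 had 2.96, 3.15, 3.18, 2.97 and 2.96, against 2.56, 4.01, 2.69 and 3.03. Neither gene held a P30 sample near the level of hypoxic P8 samples 4, 5 and 8. Tap1 differed by -0.70 (interval -2.76 to 1.36) and B2m by -0.24 (interval -1.52 to 1.03).

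Ifi30 was the one member that the authors' deposited P30 table gave as higher (fold 1.56). It had 8.05, 7.54, 7.97, 7.56 and 8.18 in hypoxic P30 samples, against 7.29, 6.94, 7.26 and 7.22 in normoxic ones, with no overlap (0.68 ± 0.25, SE, limma adjusted p = 1.00). The 3 Ccl21 probes, chosen for that list too, differed by -1.42 (Ccl21a and Gm1987), -1.46 (Ccl21c and Gm21541) and about as much (Ccl21b and Gm13304). The probe of Ccl21a and Gm1987 had 7.47, 7.12, 8.38, 8.73 and 7.55 under hypoxia, against 9.60, 9.05, 9.44 and 8.99 in normoxia, again with no overlap (-1.42 ± 0.34, SE, limma adjusted p = 0.490). The other 2 members lower in the authors' deposited P30 table were Isg20l2 and Ifitm5 (fold -1.28).

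**Figure D5:**
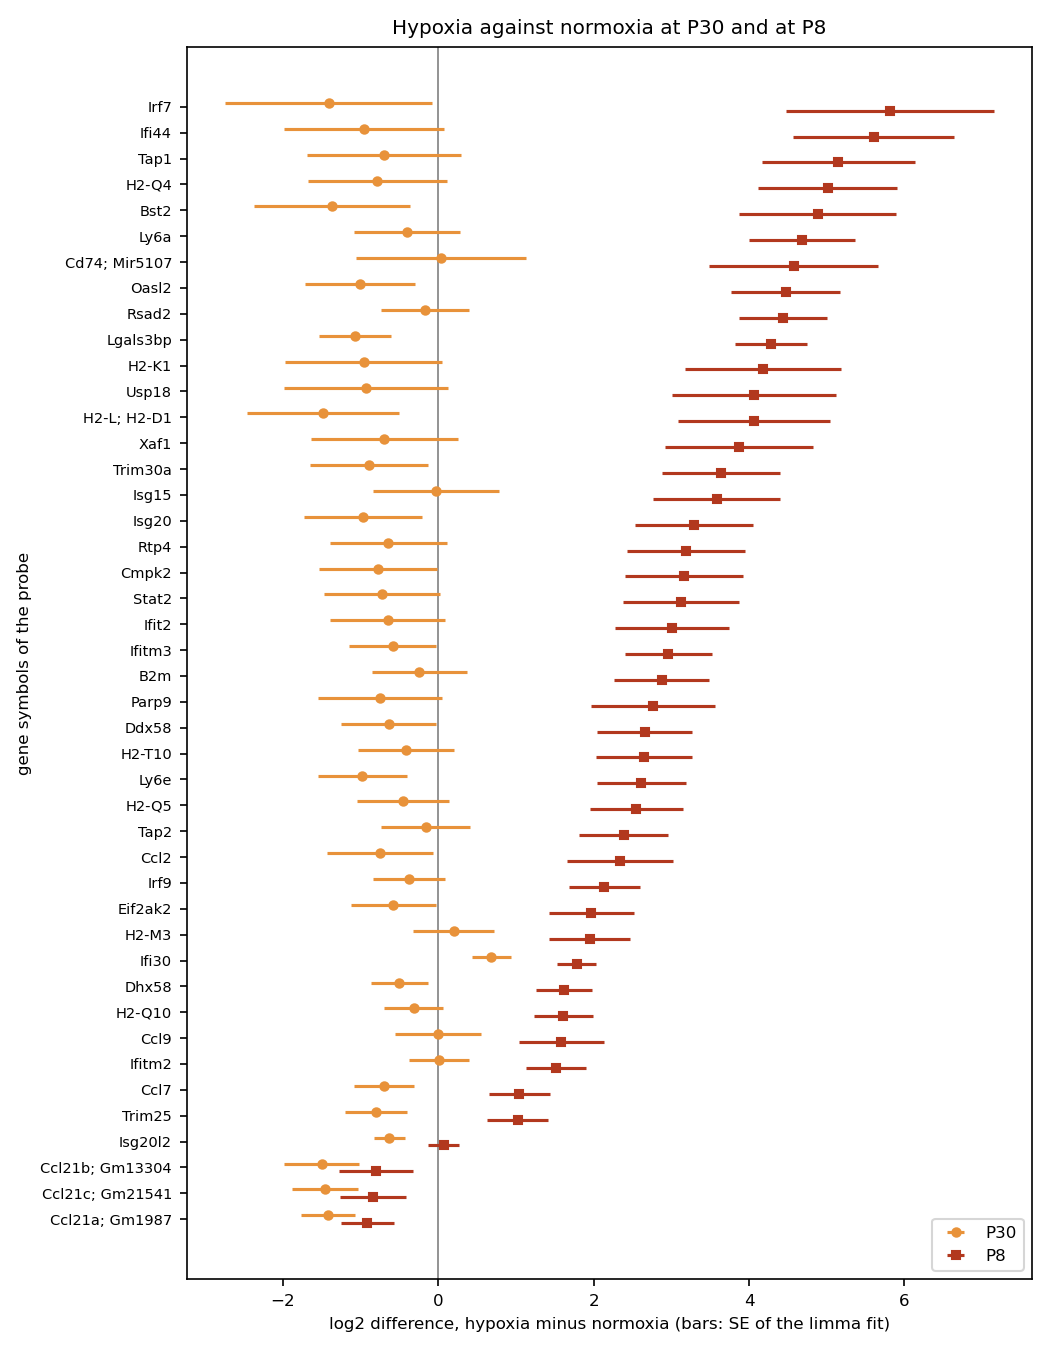
Difference of hypoxia minus normoxia in log2 signal (x axis, bars the SE of the limma fit) at P30 (circles) and P8 (squares) for 44 of the 45 probes, ordered by the P8 value. The P8 differences reach 5.81 and all but the 3 Ccl21 probes are above 0, while the P30 differences reach 0.68 at most.

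The difference of the hypoxia effects, P30 minus P8, was tested in the same fit. It was below 0 in 45 of 45 probes, with a median of -3.59, and the median over all probes was below 0 too (-0.31). Of the 45, 12 passed downwards and 0 upwards, against 4.34% and 0.829% of all probes. The choice of P8-listed genes favours this direction, since the same P8 samples enter. The 5 largest among those called were Ifi44 (-6.56 ± 1.46, SE, limma adjusted p = 0.0302), Bst2 (-6.25, adjusted p = 0.0347), Tap1 (-5.85, adjusted p = 0.0453), H2-Q4 (-5.79, adjusted p = 0.0274) and Oasl2 (-5.48, adjusted p = 0.00986). Irf7 had a larger one that missed the threshold (-7.22 ± 1.89, SE, limma adjusted p = 0.0644). Oasl2, Lgals3bp, Rsad2 and Ly6a passed under all 25 alternatives. The count moved between 4 and 27 when single samples were left out, with the highest counts without hypoxic P8 sample 6 (27) or 7 (26).

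With age in normoxia, 6 of the 45 probes passed upwards and 0 downwards, against 18.3% and 16.3% of all probes. Ly6a had 13.90, 13.62, 12.14 and 13.38 in normoxic P30 samples, against 8.01, 10.19, 9.01 and 10.10 in normoxic P8 samples (3.93 ± 0.72, SE, limma adjusted p = 0.00146). Ccl9 had 9.45, 8.99, 9.57 and 6.71 at P30, against 4.43, 5.05, 7.10 and 4.87 at P8 (3.32 ± 0.58, SE, adjusted p = 0.00100). Ly6a did not overlap between the ages, and Ccl9 did, at 1 sample of each.
The Cd74 and Mir5107 probe was higher at P30 by 4.13 ± 1.15 (SE, limma adjusted p = 0.0307), a call lost without normoxic P8 sample 13, 22 or 23 or normoxic P30 sample 2 or 3. The Ccl21 probes were higher at P30 by 2.74, 2.63 and 2.01, for example 9.60, 9.05, 9.44 and 8.99 at P30 against 6.31, 7.99, 7.05 and 7.70 at P8 for that of Ccl21a and Gm1987 (limma adjusted p = 0.00134). None of the 14 antiviral effectors passed in this fit. More of the 45 probes passed with only the normoxic groups in the fit or without hypoxic P8 samples 4 and 5, as given below. A missing call is therefore not evidence of no change with age. Short of the threshold, the effectors ranged from -1.24 (Isg20) to 1.89 (Trim30a, unadjusted p = 0.0289, limma adjusted p = 0.239), with Oasl2 at 1.75 (adjusted p = 0.238), Ifitm3 at 1.63 (adjusted p = 0.122), Isg15 at 0.30 and Rsad2 at -0.58. Over the 45 probes the median was 1.14, against -0.10 over all probes. Of the 45, 40 were above 0, and the 14 with an unadjusted limma p under 0.05 were all higher at P30. The matching shares of all probes were not worked out. Since 18.3% and 16.3% of all probes passed even the adjusted threshold, the count of 14 does not set the 45 apart.

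Under hypoxia, P30 against P8 gave 4 probes that passed upwards and 37 downwards, against 26.3% and 43.9% of all probes. The 4 were Ccl9 and the 3 Ccl21 probes, which passed upwards in normoxia as well. The Ccl9 call under hypoxia was lost without hypoxic P8 sample 6, 7 or 8 or hypoxic P30 sample 2 or 3, and with the sample number as a block (0.87). Isg20 was lower at P30 by the largest amount, with 5.91, 5.37, 5.85, 6.24 and 5.25 at P30 against 10.71, 10.76, 11.83, 11.22 and 11.62 at P8 under hypoxia (-5.50 ± 0.72, SE, limma adjusted p = 1.17e-05). These ages were compared within the hypoxic groups, whose P8 samples are the ones in which the genes were chosen to be high. Without hypoxic P8 samples 4 and 5, 17 probes passed downwards and 4 upwards.

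Further genes of the pathway, outside the name pattern, were taken from lists. Of 20 interferon genes, receptors and JAK kinases, 3 had values, and 1 passed at P8. Ifnl3, a lambda interferon, had 5.37, 5.87, 5.32, 4.71 and 5.49 under hypoxia at P8, against 4.92, 4.18, 4.42 and 4.19 in normoxia. Ifna1, an alpha interferon, had 3.22 to 3.40 in hypoxic P8 samples, against 3.51 to 4.21 in normoxic ones, and was not called. Neither ligand's probe set samples 4 and 5 apart as Irf7 did. Of 21 upstream receptors and adaptors, 5 had values and 2 passed upwards at P8: Myd88, the adaptor of Toll-like receptors, and the RNA-editing enzyme Adar. All 9 interferon-induced GTPases with values, of 17 listed, passed upwards at P8, with a median difference of 5.46. Of 10 class II and peptide-loading genes, 2 had values and 1, Rfxank, passed upwards at P8. No gene of these lists passed at P30.

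The sample profile most like the median of the 45 probes, among 2532 other probes with 1 symbol, was that of Gbp3 (Pearson r = 0.992 over 18 samples), followed by Gbp7 (0.988), Gbp2 (0.984), Rnf213 (0.977) and Dtx3l (0.975). These correlations describe samples that share their groups and have no test. Within the set, Rtp4 followed the median most closely (r = 0.987), and Ccl9 (0.114) and the Ccl21 probes (-0.32 to -0.28) did not follow it.

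Markers of other cells moved in different ways at P8. The mean of 8 macrophage markers with values, of 14 listed, was 7.74 and 7.62 in hypoxic P8 samples 4 and 5 and 6.53 to 6.85 in samples 6 to 8, against 5.14 to 5.91 in normoxic samples, and 5 of the 8 passed upwards. That of 4 neutrophil markers, of 9, was 6.13 and 6.86 in samples 4 and 5 and 4.85 to 5.29 in the others, against 3.58 to 4.47 in normoxia, and 3 of 4 passed upwards. The means of both leukocyte lists were thus highest in the samples with the highest interferon-stimulated signal, with a smaller step between samples than those genes showed. Lyve1 of the macrophage list was instead lowest of the hypoxic P8 samples in sample 4 (7.57) and highest in sample 6 (9.07).
Of the 11 T and NK cell markers 2 had values. Cd3g, a subunit of the T cell receptor complex, was lower under hypoxia at P8 in the authors' deposited table (3.95 against 5.93, fold -3.93, q-value 0.224). Gzma, a granzyme of cytotoxic lymphocytes, had 8.75, 8.57, 4.71, 3.93 and 4.69 in hypoxic P8 samples 4 to 8, against 3.58, 4.06, 3.71 and 3.16 in normoxic ones, whereas Cd8a had 3.28 and 3.59 in samples 4 and 5, below the 4.06 to 5.91 of normoxic samples. Neither passed at P8. The endothelial mean (2 of 6) was 12.6 to 13.6 under hypoxia, against 11.3 to 11.7 in normoxia, lowest of the hypoxic samples in sample 4. The cardiomyocyte mean (Ryr2 and Ttn, 2 of 6) was 15.2 and 15.8 in samples 4 and 5 and 13.55 to 14.39 in samples 6 to 8, against 15.7 to 16.9 in normoxia, and both genes fell. No B cell marker and no dendritic cell marker had values. The dendritic cell marker Itgax was lower under hypoxia at P8 in the authors' deposited table (2.65 against 3.10, fold -1.36, q-value 0.157). At P30 the macrophage mean was 7.21 to 7.66 under hypoxia, against 7.13 to 7.99 in normoxia. The part of these cells in the results was not tested, and in whole hearts fewer cells of a type and less RNA per cell cannot be told apart.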

How the data were processed

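Heart RNA was purified on columns and biotin-labelled for Clariom S arrays, per the labels' protocols. Affymetrix Expression Console is named in the submitters' processing notes, without the normalization. The deposited value table holds log2 signals of 4704 probes, 21.2% of the array, and how these probes were selected is not given in the labels. Array medians were 7.38 to 8.07. The authors' deposited gene lists give group averages as log2 signal, the SD, a signed fold (a score, negative where hypoxia is lower), a p-value and a q-value. The averages match a Tukey biweight within 0.015 in 99.7% or more of the probes with values, per own recomputation. The authors' deposited enrichment table gives p-values, q-values and an enrichment ratio without the comparison behind them, so its terms are not used here. No detection calls were used, and the number of arrays limits the precision. The normoxic P8 mean of 23 of the 45 probes lay below 5.48, the 25th percentile of all values, where folds are uncertain.

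All 4 groups were fitted together by limma 3.58.1 under R 4.3.3 (a linear model with moderated variances, 14 residual and 5.98 prior degrees of freedom), with Benjamini-Hochberg adjustment over 22201 tests, a number inferred from how the deposited q-values follow from the p-values, and a threshold of 0.05. Each probe thus had 1 variance for all groups, although the median SD over the 45 probes differed among them. It was 1.71 in hypoxic P8, 0.61 in normoxic P8, 0.44 in hypoxic P30 and 0.65 in normoxic P30 samples. An SE therefore does not follow the 2 compared groups alone. For a probe with its widest spread in hypoxic P8 samples, it is likely too small at P8 and too large at P30. With only the 2 P8 groups in the fit, 9 of the 36 P8 calls remained. The fit was tested on simulated data with equal spread in all groups and an equal shift in each hypoxic P8 sample. That test could not judge the fit under unequal spread. Sample numbers shared between groups were not treated as pairs, since the labels do not name them as such. Deviations of same-numbered samples from their group means correlated at -0.17 to 0.07 between the P30 groups. Between the hypoxic groups they correlated at -0.21 and 0.18. So few shared numbers cannot exclude pairs. Probes with several symbols are named by all of them. The values of 1 member are included in counts and medians but are not reported here. The alternatives were other scalings, filters, variance models and left-out samples. Members and lists were chosen with earlier results of these data known. Named were, per role, the 4 probes with the largest statistic at P8, chosen key genes, the 5 largest differences of effect, the genes called with age in normoxia, those against the majority and those passing without hypoxic P8 samples 4 and 5.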

Additional observations from a re-analysis of the deposited data

Results flagged for a closer look

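For 12 genes the hypoxia effect differed between the ages by the test of the difference itself, P30 minus P8 in log2 signal: Ifi44 (-6.56), Bst2 (-6.25), Tap1 (-5.85), H2-Q4 (-5.79), Oasl2 (-5.48), Lgals3bp (-5.36), Ly6a (-5.08), Rsad2 (-4.61), Trim30a (-4.53), Ly6e (-3.59), Ifitm3 (-3.55) and Dhx58 (-2.12). All 12 are in the P8 list, a choice that favours this direction. Oasl2, Lgals3bp, Rsad2 and Ly6a kept the call under all 25 alternatives, and the other 8 lost it when some single samples were left out, from 8 of 25 alternatives for H2-Q4 to 17 of 24 for Trim30a.

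In 6 of 180 groups of samples looked at (3.33%), 1 sample stood far from the others of its group, and chance alone flags about 1 in 20. Ccl9 reached 7.82 in hypoxic P8 sample 4. Stat2 had 6.34 in normoxic P30 sample 4, below the others. In normoxic P8 hearts Ccl2 had 6.11 in sample 24 and Cmpk2 6.13 in sample 13, both above the others, while Oasl2 had 3.84 and Bst2 5.28 in sample 22, both below the others. Oasl2 and Bst2 kept their P8 calls without normoxic sample 22. Of the 36 P8 calls, 23 were kept without that sample, 23 without normoxic sample 23 and 25 without normoxic sample 24.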

How the results depend on the processing

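The count of 36 probes called at P8 was 9 with only the 2 P8 groups in the fit and 18 without hypoxic samples 4 and 5, and ran from 23 to 38 when single samples were left out, with 23 without normoxic sample 22. No called value of a single gene changed sign under any alternative run. The P8 median stayed between 2.44 and 3.31 when single samples were left out. Without hypoxic samples 4 and 5 together it fell below that range, to 1.81, the value of Ifit2. The median over all probes at P8 moved with the scaling, from 0.18 as deposited to -0.08 after quantile normalization and -0.19 after centring each array. The P30 count was 0 in every fit, and the P30 median ran from -0.80 to -0.56 when single samples were left out (-0.56 without normoxic sample 2) and was -0.54 with centred arrays. The count of 12 differences of effect was 7 after quantile normalization, 7 with robust eBayes and 39 when adjusted over the value table alone, and ran from 4 to 27 when single samples were left out: 4 without normoxic P8 sample 22, normoxic P30 sample 2 or hypoxic P30 sample 2, 5 without hypoxic P8 sample 8, normoxic P30 sample 3 or hypoxic P30 sample 1, 6 without normoxic P8 sample 23 or 24 or hypoxic P30 sample 3 or 5, and 7 without hypoxic P8 sample 4 or normoxic P30 sample 4. The 6 calls with age in normoxia became 13 with only those 2 groups in the fit and 13 without hypoxic P8 samples 4 and 5, and ran from 5 to 7 with single samples left out. The 41 calls with age under hypoxia became 24 with centred arrays and 21 without samples 4 and 5, and ran from 31 to 40 with single samples left out. With the sample number as a block, 0 probes passed at P30 with a median of -0.64, and 38 passed with age under hypoxia, 1 upwards (Ccl21b and Gm13304) and 37 downwards. The pairing had no support in the values, so the block is given for completeness. The share of genes with the promoter element was 18.2% with the stricter form. The cause of these shifts was not tested, beyond that fewer samples, another pooled variance or other tests enter the fit. Dim probes limit the size of differences.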
